A study of Mus musculus with 2 samples.

Results

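The genes described here encode the contractile apparatus of skeletal muscle, the isoforms that separate fast from slow fibres, and the calcium and energy proteins of the muscle fibre. They were taken by gene symbol from a list drawn up with earlier results of these data known. Of the 36 genes, 35 had at least 1 probe, and together they had 78 of the 45281 probes on the array. The 34885 probes with a single symbol cover 19057 genes. The gene without a probe under its symbol was Myh2, the myosin heavy chain of fast oxidative (IIa) fibres. The tissue was whole tibia from female C57BL/6 mice aged 22 weeks. The Terc-/- group, labelled G3 in the series' design text, lacks the RNA component of telomerase, and the Terc+/+ group carries that gene. Each group was 1 pool of RNA from 3 mice, hybridised to 1 Illumina bead array, and the mice had received no treatment. With 1 array per genotype no difference could be tested, no p-value or standard error exists for any gene, and the spread between mice was not measured.

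A muscle fibre contracts when myosin heads of the thick filament pull on actin of the thin filament, within a repeating unit called the sarcomere. Calcium released from the sarcoplasmic reticulum binds the troponin complex, which moves tropomyosin aside and exposes actin. Fast fibres rely on glycogen and glycolysis and use one set of myosin and troponin isoforms, while slow and oxidative fibres use another set, carry myoglobin and depend on mitochondria. The muscles of the mouse lower leg are mostly fast, apart from the soleus. Skeletal muscle attaches to the outer surface of the tibia and is not part of the bone itself. In a bulk sample, fewer muscle fibres and less muscle RNA per fibre cannot be told apart.

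The median raw probe intensity was 138 on the Terc-/- array and 127 on the Terc+/+ array, and 15363 probes were detected on the Terc-/- array and 16640 on the Terc+/+ array at a detection p-value below 0.01. Values per pool are raw intensities of the gene's brightest probe, and differences are log2 values after background correction and quantile normalization, Terc-/- minus Terc+/+. The lowest raw intensity of a detected probe was 169 on the Terc-/- array and 150 on the Terc+/+ array. The single probe of Terc was below background in both pools, at 112 in Terc-/- and 112 in Terc+/+, and gives no check of the genotype labels.

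Muscle transcripts were lower in the Terc-/- pool almost throughout the set. In all, 31 of the 36 passed the detection filter, 30 of them on both arrays, and 30 of the 31 were lower in Terc-/-, where 49.1% of all 9953 detected genes were lower. The median difference over the 31 genes was -0.97 on the log2 scale (Terc-/- minus Terc+/+), against 0.01 over all detected genes. Of the 31, 14 were lower by 2-fold or more (45.2%), compared with 10.4% of all detected genes, and 1 was higher by 2-fold or more, where the share of all detected genes was 7.78%. A 1.5-fold rule took 29 of the 31 as lower (20.5% of all detected genes) and a 3-fold rule took 4 (3.69% of all detected genes). The 2-fold count was 9 without background correction (5.01% of all detected genes) and 9 in the deposited normalized values (5.19%). The 1 gene higher was Tnnt1, at 1.05, and it did not reach 2-fold without background correction, with an offset of 50, with cyclic loess or in the deposited values. Summed over the 31 genes, the normalized linear signal of the Terc-/- pool was 49.5% of that of the Terc+/+ pool.

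The count at 2-fold depends on small distances from that line. In all, 8 genes lay within 0.1 log2 units short of it and 5 within 0.1 past it. Just outside were Myot at -0.99, Acta1 and Mybpc2 at -0.97, and just inside were Tpm1 at -1.01, Mylk2 at -1.03 and Des at -1.04. Most genes lay near a halving. Actn2 and Myh1 lay below the rest of them, Mb and Myl3 further below, and Tnnc1 and Tnnt1 above.

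**Figure D1:**
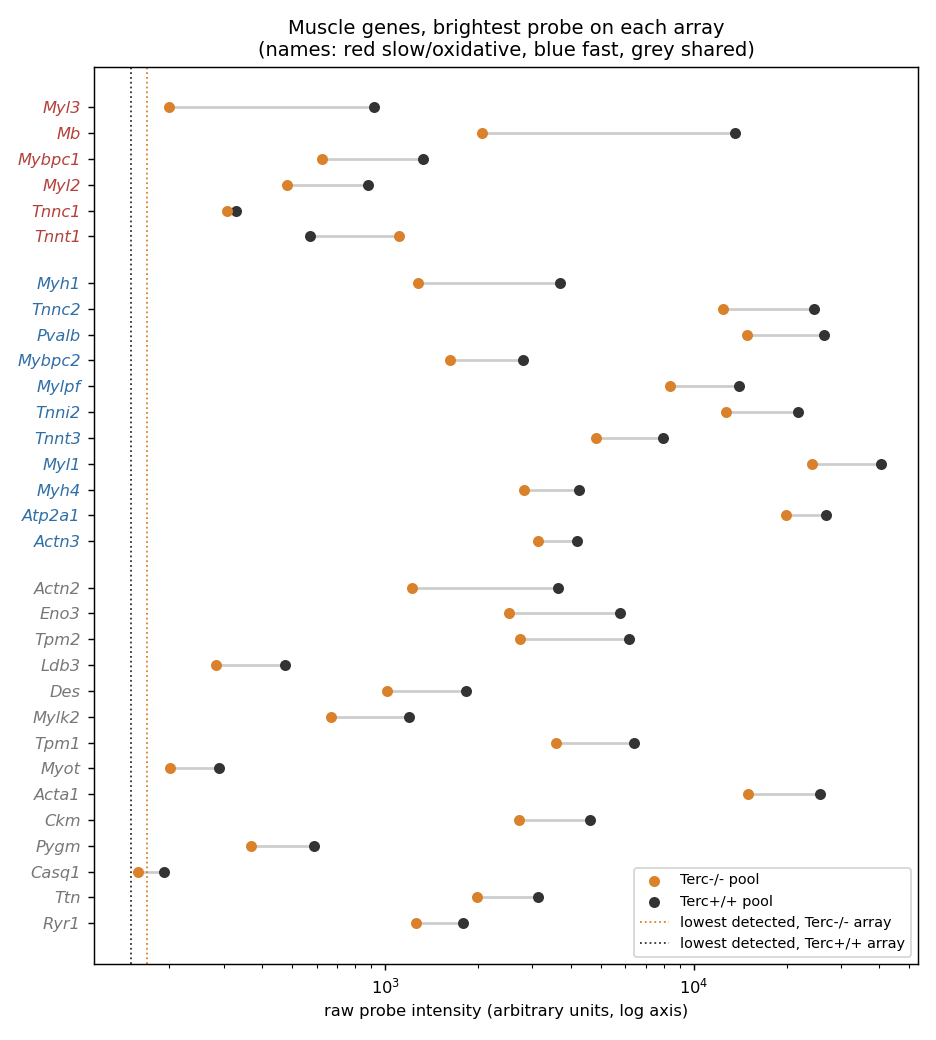
Raw intensity of the brightest probe of each detected muscle gene (log axis) in the Terc-/- pool (orange) and the Terc+/+ pool (black), with dotted lines at the lowest detected signal of each array; the gene order follows the difference within slow, fast and shared groups. The orange point lies left of the black point for 30 of 31 genes, and Tnnt1 is the exception.

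**Figure D2:**
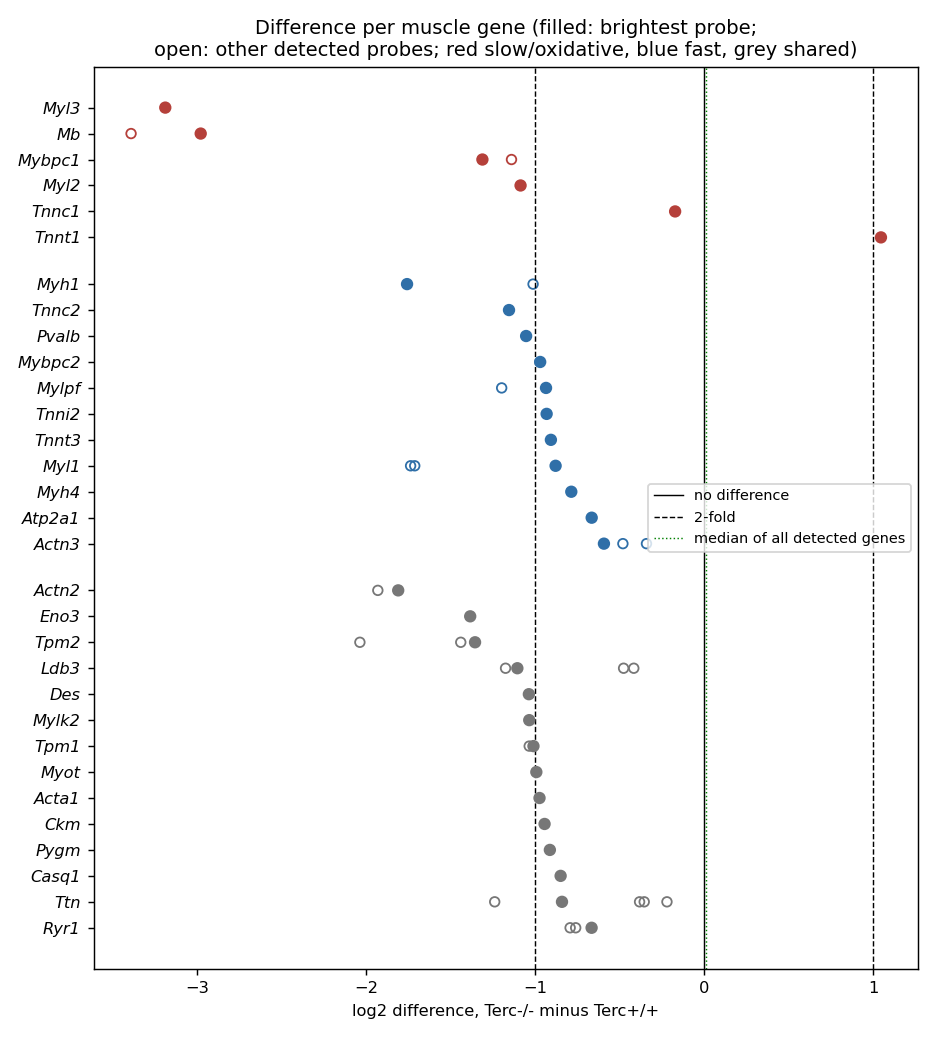
Log2 difference (Terc-/- minus Terc+/+) of each detected muscle gene; filled points are the brightest probe, open points the other detected probes of the gene, dashed lines mark 2-fold and the green dotted line the median of all detected genes (0.01). Fast and shared genes lie between -1.81 and -0.59, while slow and oxidative genes run from -3.19 to 1.05.

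Upstream sequence is shown for 5 of these genes, because they carry the contrasts described below: Myl3 and Mb had the largest differences, Tnnt1 was the gene that went the other way, Myl1 is the fast partner of Myl3, and Myh1 was the fast gene with the largest difference. Each line holds the 250 bases before the RefSeq transcript start in GRCm38.p6, 5′ to 3′ on the gene's strand. The Myl3 window lies at chr9:110763428-110763677, plus strand, that of Myl1 at chr1:66945057-66945306, minus strand, that of Tnnt1 at chr7:4515976-4516225, minus strand, that of Mb (the start farthest downstream) at chr15:77022728-77022977, minus strand, and that of Myh1 at chr11:67199852-67200101, plus strand. Capitals mark matches to the E-box (CANNTG, bound by myogenic factors such as MyoD), the MEF2 motif, the CArG box of serum response factor, the MCAT motif (CATTCC, either strand) and the TATA box (TATAAA, gene strand only).
Myl3: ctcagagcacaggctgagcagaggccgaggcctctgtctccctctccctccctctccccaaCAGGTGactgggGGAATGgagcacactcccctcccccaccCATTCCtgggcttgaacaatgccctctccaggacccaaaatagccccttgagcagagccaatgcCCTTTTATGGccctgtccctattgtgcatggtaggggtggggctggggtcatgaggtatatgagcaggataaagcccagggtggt
Myl1: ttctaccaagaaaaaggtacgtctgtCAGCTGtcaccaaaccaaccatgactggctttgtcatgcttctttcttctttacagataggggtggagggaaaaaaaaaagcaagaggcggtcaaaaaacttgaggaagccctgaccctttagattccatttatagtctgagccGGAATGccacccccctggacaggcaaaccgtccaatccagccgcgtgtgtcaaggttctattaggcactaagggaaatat
Tnnt1: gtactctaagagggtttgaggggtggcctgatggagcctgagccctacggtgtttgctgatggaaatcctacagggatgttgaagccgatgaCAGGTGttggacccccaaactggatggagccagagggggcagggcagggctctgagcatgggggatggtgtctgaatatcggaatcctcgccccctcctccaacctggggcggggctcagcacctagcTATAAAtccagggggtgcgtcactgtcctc
Mb: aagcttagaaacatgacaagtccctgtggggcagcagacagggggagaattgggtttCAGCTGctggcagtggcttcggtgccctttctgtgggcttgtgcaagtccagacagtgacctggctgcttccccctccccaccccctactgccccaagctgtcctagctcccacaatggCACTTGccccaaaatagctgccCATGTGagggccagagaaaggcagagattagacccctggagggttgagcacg
Myh1: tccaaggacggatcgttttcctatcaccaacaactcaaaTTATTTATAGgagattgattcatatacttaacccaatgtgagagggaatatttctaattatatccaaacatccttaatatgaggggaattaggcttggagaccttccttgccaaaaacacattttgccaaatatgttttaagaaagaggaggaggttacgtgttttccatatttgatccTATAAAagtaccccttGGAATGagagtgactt
The Myl3 window holds 1 E-box, 2 MCAT matches and 1 CArG box, and the Myl1 window 1 E-box and 1 MCAT match. The Tnnt1 window holds 1 E-box and 1 TATA box, the Mb window 3 E-boxes, and the Myh1 window 1 MEF2 match, 1 TATA box and 1 MCAT match. RefSeq windows were matched for 30 of the 36 genes, 37 windows in all. An E-box was present in 83.8% of these windows and in 66.2% of all 32851 windows, a MEF2 match in 13.5% and 2.92%, a CArG box in 13.5% and 1.47%, an MCAT match in 27.0% and 12.6%, and a TATA box in 10.8% and 7.59%. Both E-boxes and MCAT matches occur upstream of genes that differed by very different amounts, and a match describes the sequence only.

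The myosin heavy chains are the motor proteins of the thick filament, and the isoform largely sets how fast a fibre shortens. Myh4, the motor of the fastest (IIb) fibres, had a raw intensity of 2820 in Terc-/- and 4257 in Terc+/+, a normalized difference of -0.79. Myh1, the motor of fast IIx fibres, had 1282 in Terc-/- and 3685 in Terc+/+, a difference of -1.76, or 3.38-fold lower. Its second probe, with 202 in Terc-/- and 293 in Terc+/+, differed by -1.01, so the Myh1 probes agreed in direction and not in size. Myh7, the slow and cardiac heavy chain, had 3 probes, which read from 113 to 125 in Terc-/- and from 109 to 144 in Terc+/+. The 3 probes of Myh8, the perinatal heavy chain, read from 130 to 145 in Terc-/- and from 127 to 136 in Terc+/+. No Myh7 or Myh8 probe was above background in either pool. Myh2, Myh1, Myh4 and Myh8 stand next to each other on mouse chromosome 11 and are related genes. Whether their probes share signal was not checked.

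The myosin light chains, which brace the neck of the motor, were all lower, and by the brightest probes slow Myl3 stood apart from the others. Mylpf, the fast regulatory light chain, had 8411 in Terc-/- and 14054 in Terc+/+ on its brightest probe, a difference of -0.93, and -1.20 on its other probe. Myl1, the fast essential light chain, had 24130 in Terc-/- and 40447 in Terc+/+, a difference of -0.88. The 2 dimmer Myl1 probes, at 2773 and 621 in Terc-/- against 8089 and 1691 in Terc+/+, differed by -1.74 and -1.71. The brightest Myl1 probe thus showed the smallest difference of the 3, and saturation flags were not used here. Myl2, the regulatory light chain of slow fibres and heart, had 482 in Terc-/- and 878 in Terc+/+, a difference of -1.09. Myl3, the essential light chain of slow fibres and heart, had 200 in Terc-/- and 918 in Terc+/+, a difference of -3.19, or 9.10-fold lower. That was the largest difference of the set by the brightest probe of each gene, it rests on 1 probe, and the Terc-/- value lay close to the lowest detected signal of its array. Mylk2, the kinase that phosphorylates the regulatory light chain of skeletal muscle, had 665 in Terc-/- and 1194 in Terc+/+, a difference of -1.03, with its 2 other probes below background.

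The detected subunits of the troponin complex split by fibre type. The 3 fast subunits were close together. Tnnt3, which ties the complex to tropomyosin, had 4810 in Terc-/- and 7925 in Terc+/+, a difference of -0.91. Tnni2, the inhibitory subunit, had 12712 in Terc-/- and 21721 in Terc+/+, a difference of -0.93, and its gene lies 1 protein-coding gene away from Tnnt3 on chromosome 7. Tnnc2, the calcium sensor, had 12438 in Terc-/- and 24633 in Terc+/+, a difference of -1.15. All 3 fast subunits were thus near a halving. The slow subunits were not. Tnnt1, slow troponin T, had 1108 in Terc-/- and 572 in Terc+/+, a difference of 1.05, or 2.06-fold higher. Tnnc1, the calcium sensor of slow fibres and heart, had 308 in Terc-/- and 329 in Terc+/+, a difference of -0.17. Tnni1, slow troponin I, was below background in both pools, at 122 in Terc-/- and 122 in Terc+/+. Tnnt1 and Tnnc1 each rest on 1 probe.

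Actin and tropomyosin of the thin filament were lower together. Acta1, skeletal alpha-actin, had 14988 in Terc-/- and 25683 in Terc+/+, a difference of -0.97. Tpm1, alpha-tropomyosin, differed by -1.01 and -1.03 on its 2 detected probes, and Tpm2, beta-tropomyosin, by -1.35 and -1.44 on the 2 probes detected in both pools. Both tropomyosins are also made in cells other than skeletal muscle. The single Neb probe, for nebulin along the thin filament, was below background in both pools, at 118 in Terc-/- and 113 in Terc+/+.

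Proteins that hold the sarcomere together were lower to different degrees. At the Z-disc, which anchors thin filaments, Actn2, the alpha-actinin of all fibre types and heart, had 1226 in Terc-/- and 3642 in Terc+/+, a difference of -1.81, or 3.50-fold lower, with its second detected probe at -1.93. Actn3, the alpha-actinin of fast fibres, had 3138 in Terc-/- and 4171 in Terc+/+, a difference of -0.59, and its 3 probes ran from -0.59 to -0.34. The 2 alpha-actinins therefore stood at opposite ends of the non-slow genes, and their probes did not overlap. Ldb3, a Z-disc adaptor, differed by -1.10 on its brightest probe, Myot, the Z-disc protein myotilin, by -0.99, and Des, the intermediate filament desmin that links Z-discs, by -1.04. Of 6 Ldb3 probes, made for different transcripts, 4 were detected. The 2 detected in both pools differed by -1.10 and -1.17, and the 2 detected in Terc+/+ alone, dim in both pools, by -0.48 and -0.42, against Terc-/- readings that were below background.

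In the thick filament, the myosin-binding proteins C differed by -1.31 for Mybpc1, of slow fibres, and -0.97 for Mybpc2, of fast fibres. Mybpc1 had 625 in Terc-/- and 1330 in Terc+/+, and its second detected probe differed by -1.14. Ttn, the giant spring titin, had 12 probes, of which 5 were detected. They differed by -0.84 and -1.24 on the 2 brighter probes, which read 1981 and 668 in Terc-/- against 3122 and 1366 in Terc+/+. The 3 dimmer Ttn probes, which read from 167 to 180 in Terc-/- and from 177 to 194 in Terc+/+, differed by between -0.38 and -0.22. The dimmest of them, at 167 in Terc-/-, was below background in that pool. All 4 Ttn probes detected in both pools were lower in Terc-/-.

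Calcium-handling genes were lower by amounts between those of the 2 alpha-actinins. Atp2a1, the calcium pump of fast fibres, had 19941 in Terc-/- and 26894 in Terc+/+, a difference of -0.66. Ryr1, the calcium release channel, differed by -0.67 on its brightest probe and by -0.76 and -0.79 on the others detected. Pvalb, parvalbumin, the calcium buffer of fast fibres, had 14838 in Terc-/- and 26464 in Terc+/+, a difference of -1.05. For Casq1, which stores calcium in the reticulum, the raw values were 159 in Terc-/-, below background, and 192 in Terc+/+. Its bound was at least 1.48-fold lower on the background-corrected scale, while the difference was -0.32 without background correction and -0.31 in the deposited values, so the size for Casq1 depends on the correction.

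Among the genes of energy supply, Mb differed by far more than the others. Mb, myoglobin, which binds oxygen in oxidative fibres and heart, had 2068 in Terc-/- and 13639 in Terc+/+ on its brightest probe, a difference of -2.98, or 7.87-fold lower. The other Mb probe, at 489 in Terc-/- and 3786 in Terc+/+, differed by -3.39. Both Mb probes read well above the lowest detected signal in both pools. Eno3, the muscle enolase of glycolysis, had 2517 in Terc-/- and 5761 in Terc+/+, a difference of -1.38. Ckm, the muscle creatine kinase, had 2710 in Terc-/- and 4617 in Terc+/+, a difference of -0.94, and Pygm, which breaks down muscle glycogen, had 367 in Terc-/- and 587 in Terc+/+, a difference of -0.91. Mb stood well apart from these 3.

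Set against each other, slow and fast genes differed in spread more than in centre. The 6 detected slow and oxidative genes, out of 8, had a median of -1.20 and ran from -3.19 to 1.05, with an SD over genes of 1.62. The 11 detected fast genes, out of 12, had a median of -0.93 and ran from -1.76 to -0.59, with an SD over genes of 0.31. The 14 detected genes shared by fibre types, out of 15, had a mean of -1.06 and ran from -1.81 to -0.67. The slow median was 0.27 log2 units below the fast median, and when all probes of a gene were averaged it was 0.07 above it. Slow genes thus gave no common direction relative to fast genes. Over the 31 genes, the difference did not track brightness (Pearson r = -0.02 and Spearman rho = 0.01 between the difference and the mean log2 level, across genes, which share the same 2 arrays and are not independent).

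In 5 sarcomere parts both a slow and a fast partner were above background, which allows the partners to be compared part by part. In the essential light chain, slow Myl3 differed by -3.19 and fast Myl1 by -0.88 on its brightest probe, so that slow over fast was 4.95-fold lower in Terc-/-. In troponin T the order was the reverse, with slow Tnnt1 at 1.05 and fast Tnnt3 at -0.91, so that slow over fast was 3.87-fold higher in Terc-/-. In troponin C, slow Tnnc1 stood at -0.17 and fast Tnnc2 at -1.15, and slow over fast was 1.98-fold higher. The regulatory light chain (slow Myl2 at -1.09, fast Mylpf at -0.93) and myosin-binding protein C (slow Mybpc1 at -1.31, fast Mybpc2 at -0.97) differed by similar amounts. Over 9 ways of processing, slow minus fast stayed between -2.48 and -1.36 for the essential light chain, between 1.78 and 1.95 for troponin T and between 0.77 and 1.03 for troponin C. It had either sign for the regulatory light chain (-0.32 to 0.02) and for myosin-binding protein C (-0.42 to 0.25). The size for the essential light chain depends on the probe and the correction. The 2 dimmer Myl1 probes differed by -1.74 and -1.71, and Myl3, dim in Terc-/-, stood at -2.25 without background correction. The slow heavy chain and slow troponin I were below background, and their fast partners have no slow value to be set against.

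**Figure D3:**
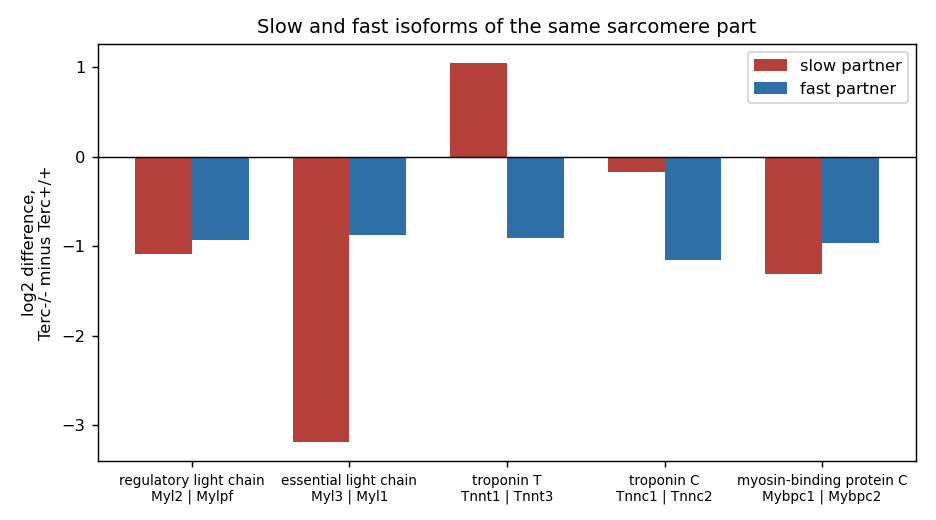
Bars give the log2 difference (Terc-/- minus Terc+/+) of the slow partner (red, left) and the fast partner (blue, right) of 5 sarcomere parts, 1 probe each. The slow bar is the longer one downwards in the essential light chain (-3.19) and points upwards in troponin T (1.05), while the fast bars lie between -1.15 and -0.88.

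Other muscle genes, outside the 36, were set out in 3 lists to see whether the lower level was shared. Of 56 detected genes over the 3 lists, 32 were lower and 1 was higher by 2-fold or more, with a median of -1.09. The shares over all detected genes were 10.4% lower and 7.78% higher. Some of the 56 were detected in the Terc+/+ pool alone, where the filter itself favours a lower value in Terc-/-. Sln was detected in the Terc-/- pool alone. By bounds, the counts at least 2-fold lower were 16 of 25, 13 of 18 and 2 of 13, in the order of the lists below. Among 25 detected genes of the sarcomere and its chaperones, 17 passed 2-fold in the lower direction and 0 in the higher one (median -1.22). They included Ankrd2, an ankyrin-repeat protein of the titin spring region, at least 2.30-fold lower by its bound, Xirp2, an actin-binding protein, at -1.60 and Ankrd23, a relative of Ankrd2, at -1.55. Among 18 muscle metabolism genes, 13 passed 2-fold in the lower direction and 0 in the higher one (median -1.28). The largest differences in that list belonged to Fabp3, the fatty acid carrier of heart and oxidative muscle, which had 325 in Terc-/- and 1149 in Terc+/+ (-2.32), to Ckmt2, the mitochondrial creatine kinase (-2.25), and to Cox7a1, a muscle subunit of cytochrome oxidase (-2.20).

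Excitation-contraction coupling was the least reduced of the 3 lists by its median (-0.49). Of its 13 detected genes, 2 were lower and 1 was higher by 2-fold or more. These counts lie near the shares of all detected genes (10.4% lower and 7.78% higher). Hrc, a calcium-binding protein of the reticulum, was at -1.47 and Jph1, which holds the reticulum to the surface membrane, at -1.01. Sln, sarcolipin, which restrains the calcium pump, had 201 in Terc-/- and 136, below background, in Terc+/+, a bound of at least 1.94-fold higher. It stood with Tnnt1 among the few muscle genes that were higher in Terc-/-.

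Markers of other tissues moved in the same comparison, and their part in the muscle result was not tested. Their 2-fold counts, here and in the next paragraph, stand beside 10.4% lower and 7.78% higher over all detected genes. None of 7 heart-specific genes was above background in either pool, among them Myh6, Nppa and Tnni3, while Myl2, Myl3 and Mb, which heart also makes, were. Of 9 smooth-muscle genes 5 were detected and 1 was lower by 2-fold or more (median -0.44), with summed normalized linear signal of 3444 in Terc-/- and 5156 in Terc+/+. The largest of these were Mylk at -1.23, Actg2 with signal above background in the Terc+/+ pool alone and a bound of at least 1.32-fold lower, and Myh11 at -0.44. Detected genes of the tendon and fascia list were lower by more than muscle genes, with a median of -1.62. All 5 detected genes, out of 10 listed, were past 2-fold, and their summed signal was 9050 in Terc-/- and 26567 in Terc+/+. Col3a1, a collagen of loose connective tissue, was at -2.77, Lum, the proteoglycan lumican, at -2.59 and Dcn, decorin, at -1.62, while the tendon-specific Scx, Tnmd and Mkx were below background in both pools.

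Of 6 detected adipocyte genes 2 passed 2-fold in the lower and 1 in the higher direction (median -0.77), with Car3 at -1.81, which slow muscle also makes, Adipoq at -1.66 and Lipe, above background in the Terc-/- pool alone, higher by a bound of at least 1.91-fold. Their summed signal was 4841 in Terc-/- and 10615 in Terc+/+. None of 3 detected nerve and Schwann cell genes was 2-fold lower (median -0.75; 1332 in Terc-/- and 1767 in Terc+/+), with Pmp22 at -0.89. Bone matrix genes were lower by more than muscle, with all 9 detected genes past 2-fold (median -1.57; 16966 in Terc-/- and 100737 in Terc+/+), led by Bglap at -3.82. Erythroid genes were lower still, with all 8 past 2-fold (median -3.41; 14547 in Terc-/- and 87609 in Terc+/+), led by Ermap at -3.75. The other detected Ermap probe differed by -0.65. Of 12 neutrophil genes 4 were higher by 2-fold or more (median 0.71; 361503 in Terc-/- and 280355 in Terc+/+), led by Mmp8 at 1.47. The lower signal in Terc-/- was therefore shared by muscle, connective tissue, bone matrix and red-cell genes, and no value here shows how much of one tissue each pool held.

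**Figure D4:**
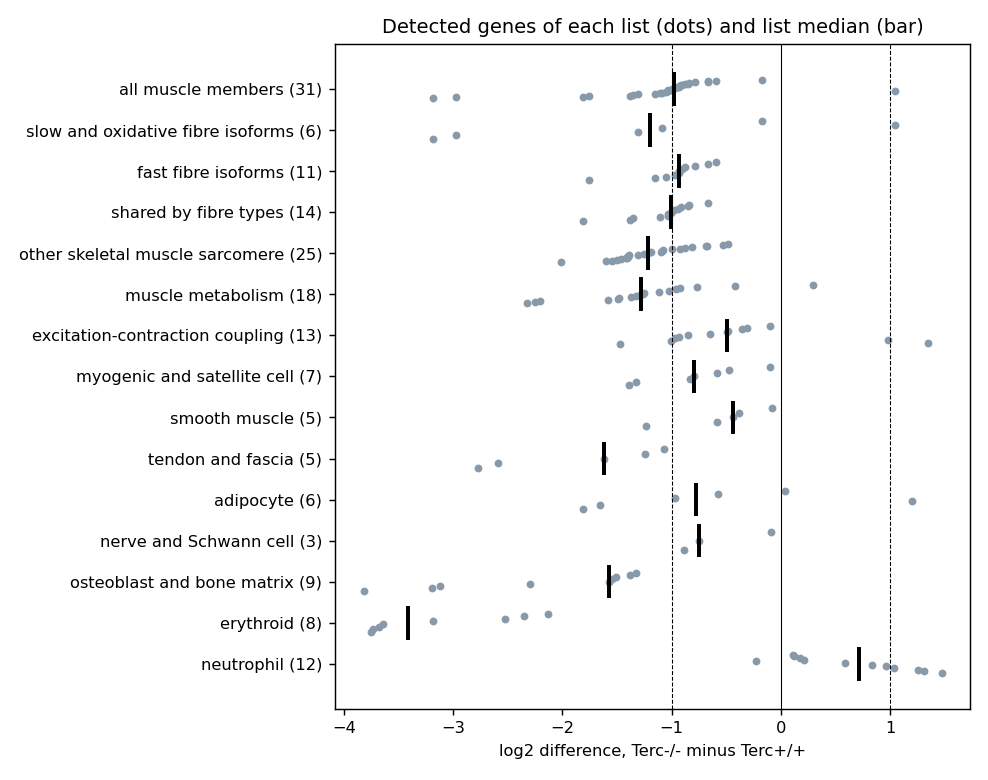
Log2 difference (Terc-/- minus Terc+/+) of each detected gene (dots, 1 per gene) by list, with the list median as a black bar, the number of detected genes in brackets and dashed lines at 2-fold. The medians of the skeletal muscle sets lie between -1.28 and -0.49. Those of the bone matrix list and of the tendon and fascia list lie at -1.57 and -1.62, and that of neutrophil genes at 0.71.

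Detected probes of the same gene gave the same direction. Of the 78 probes, 52 were detected on at least 1 array and 47 on both. Of those 47, 46 were lower in Terc-/- by the normalized values, and the same number by the raw intensities, which involve no normalization. The Tnnt1 probe was the other one. The share of lower probes over the whole array is not given here, and by gene 49.1% of all detected genes were lower by the normalized values. In 12 genes with 2 or more detected probes, all detected probes had the same sign, and the second brightest was at least 2-fold lower in 10 of the 12. Some probes of Tpm2, Ttn and Ldb3 among them were detected in Terc+/+ alone, where the filter itself favours a lower value in Terc-/-. The share of all genes at least 2-fold lower by their second probe was not computed, so the 10 of 12 has no direct comparison. By the brightest probe that share was 10.4% of all detected genes. The 26 probes that were not detected read between 107 and 165, and their differences had either sign. Agreement between probes speaks to the arrays and leaves the variation between mice unmeasured.

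**Figure D5:**
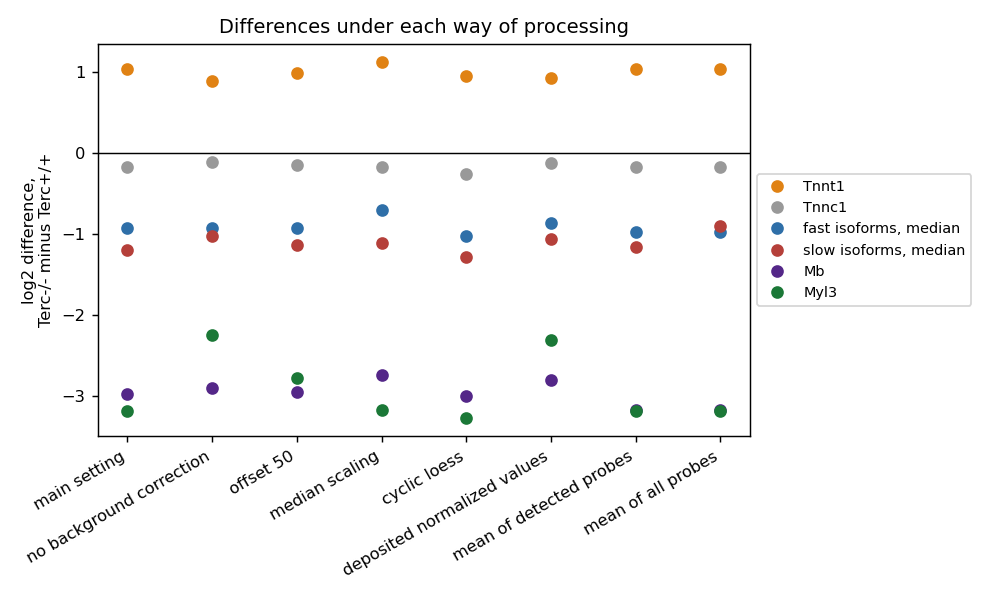
Log2 difference (Terc-/- minus Terc+/+) of 4 genes and of the fast and slow medians under 8 ways of processing the 2 arrays. Mb lies between -3.18 and -2.74 and Tnnt1 between 0.90 and 1.13, while Myl3, dim in Terc-/-, runs from -3.28 to -2.25.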

How the data were processed

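Total RNA of 2 pools of tibia, each from 3 mice, was measured on 1 Illumina array per genotype. The deposited table holds, per the file headers, a non-normalized signal, used here as intensity, and a detection p-value for each probe. The detection p-value, as deposited, moves in steps of 1 over 936. The intensity, as deposited, was not background-subtracted, since its lowest value was 88.7. A second deposited table holds linear, quantile-like normalized intensity whose target is not given in the sources used here, and served as an alternative. The background was corrected from the detection p-values with the normexp model (function nec, offset 16, limma 3.58.1 in R 4.3.3). Arrays were then quantile normalized and put on the log2 scale, and every log2 difference is Terc-/- minus Terc+/+. The normalization was also run on simulated arrays in which bright probes were changed by known folds, equally often up and down. That setting holds no shift of many genes in a single direction, so it cannot show how the method treats such a shift. A probe was detected at p below 0.01, and a gene was counted if a probe was detected on at least 1 array and was represented by its brightest probe. For a gene with signal above background in a single pool, the fold is given as a bound, taken against the dimmest detected probe of the other array or against the gene's reading there if that was higher. Such bounds hold on the background-corrected scale. The list counts use normalized values, and by bounds 1 gene fewer was lower in the list of other sarcomere genes (16 of 25), none was at least 2-fold higher in excitation-contraction coupling or among adipocyte genes, and the muscle members kept their 14 and 1. Probes with several symbols (18) or none (10378) were left out.

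The members, the lists and the split into fast, slow and shared genes were chosen with earlier results of these data known, so they are no independent support. All 36 members are named, 35 with their values, since Myh2 had no probe, and of every other list the count, the median and up to 3 genes with the largest absolute difference. The 2-fold counts follow a rule of size, with no test. Levels of different probes were not read as relative transcript amounts. The summed signals add levels of different probes, so bright probes weigh most in them. Alternatives were no background correction, an offset of 50, median scaling, cyclic loess, 3 further detection filters, the normalized values as deposited, 2 averages over probes, and thresholds of 1.5-fold and 3-fold. Precision is limited by having 1 array per genotype. Figures were drawn with matplotlib 3.10.9.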

Additional observations from a re-analysis of the deposited data

How the results depend on the processing

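The direction of every detected member was the same in all settings run: 30 were lower and Tnnt1 was higher in Terc-/-. The median over members stayed between -1.04 and -0.81, that of fast genes between -1.02 and -0.70. The count of members at least 2-fold lower ran from 9 to 21. It was 21 with cyclic loess (11.9% of all detected genes), 9 without background correction (5.01% of all detected genes) and 9 with the deposited normalized values (5.19%), 29 at 1.5-fold and 4 at 3-fold. Tnnt1, at 1.05, passed 2-fold in the setting reported, and the count of members at least 2-fold higher was 0 without background correction, with an offset of 50, with cyclic loess, with the deposited normalized values and at 3-fold. The slow median was -0.92 without a detection filter and -0.90 with all probes averaged, and the slow minus fast difference was then 0.014 and 0.068. With no detection filter, genes below background entered. Averaging all probes also brings in those below background, which took Mylk2 to -0.12, Ttn to -0.29 and Myot to -0.35. Counting every detected probe, or the second brightest, was chosen after seeing the data. No paired analysis was possible because each genotype had 1 array, and for the same reason no array could be left out. Signals near the lowest detected intensity, as for Myl3, Casq1 and the dim Ttn probes, give the least reliable differences.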

Other observations

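Genes of muscle stem cells and nerve contact were mostly near or below background. Of 13 myogenic and satellite-cell genes with a probe, 7 were detected, all 7 lower in Terc-/-, 2 of them at least 2-fold (median -0.79). Over all detected genes, 49.1% were lower and 10.4% were at least 2-fold lower. Cdon, Myog and Mef2d were detected in the Terc+/+ pool alone, so the filter itself favoured a lower value for them. Myod1, Myf5, Pax7 and Pax3, which mark satellite cells and their progeny, were below background in both pools. Vgll2, a cofactor of muscle transcription, was at -1.39, Mef2c, a muscle transcription factor that B cells and bone cells also make, at -1.33, and Myf6, the myogenic factor of mature fibres, at -0.83. Of 8 genes of the neuromuscular junction 2 were detected, Chrnb1, a subunit of the acetylcholine receptor, at -1.49 and Rapsn, which clusters that receptor, at -0.17.

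Of 4 embryonic or regenerating-muscle genes with a probe, 3 were detected. Myl4, the embryonic and atrial light chain, had 393 in Terc-/- and 1432 in Terc+/+, a difference of -2.28. Actc1, cardiac alpha-actin, which fetal muscle also makes, had 207 in Terc-/- and 422 in Terc+/+, a difference of -1.68. Ncam1, an adhesion molecule of nerve, immature and denervated muscle and some blood cells, had 2038 in Terc-/- and 1300 in Terc+/+, a difference of 0.58.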
